A study of Mus musculus with 4 samples.

Results

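Regulatory T (Treg)-like cells were picked from the single-cell counts of mouse blood by their transcripts. A cell was taken when it held at least 1 unique molecular identifier (UMI, 1 counted transcript molecule) of Cd3d, Cd3e or Cd3g, 0 of Cd8a and Cd8b1, at most 2 of the B cell gene Cd79a and at most 4 of the myeloid gene Lyz2, and either at least 1 UMI of Foxp3 or at least 1 each of Ikzf2 and Tnfrsf4. This gave 104 of the 14588 cells of the series (0.713%), and 5.23% of the 1990 cells that met the limits on Cd3, Cd8, Cd79a and Lyz2. Young sample 1 held 35 of them, young sample 2 held 43, old sample 1 held 15 and old sample 2 held 11.

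Blood was drawn from C57BL/6 female mice aged 4 months (young) or 24 months (old), with no treatment or altered gene named in the labels. The blood of 2 mice was pooled for each sample before leukocytes were isolated. There were 2 young and 2 old samples, so n = 2 per age, and p-values measure the spread between pools and not between mice. The 3′ ends of transcripts were read from single-cell droplets, and the deposited values are UMI counts. The samples held 2187 to 4642 cells and 9521253 to 18658072 UMIs each.

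Treg cells are Cd4 T cells that restrain other lymphocytes, and their defining transcription factor is Foxp3. They need interleukin 2, which they bind through the high-affinity receptor chain Il2ra (CD25), and they carry inhibitory and costimulatory receptors such as Ctla4, Tnfrsf18 (GITR) and Tnfrsf4 (OX40). Ikzf2 (Helios) is a transcription factor of Treg cells, and Izumo1r (folate receptor 4) is a surface protein high on them. In blood, Treg cells range from resting cells with the lymph node homing receptor Ccr7 to effector cells with Klrg1, tissue chemokine receptors and S100 proteins.

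The depth behind each value was low. The summed Treg-like cells held 102446 and 133968 UMIs in the young samples and 45119 and 39733 in the old ones, and the median cell held 2807, 2562, 2680 and 2959 UMIs in the same order. Levels are given as CPM, the UMIs of a gene in 1e6 UMIs of the summed cells, so that 3 UMIs, the limit that a count of 0 allows, stand for 35.4 CPM over both old samples. Of 108 cell barcodes found in more than 1 library, 5 were those of a Treg-like cell and 0 were Treg-like in both libraries. The adult haemoglobin genes took 0.687% and 8.91% of the Treg-like UMIs of young samples 1 and 2, and 5.10% and 13% of those of old samples 1 and 2. These sums include a few cells rich in haemoglobin, with 0, 2, 1 and 1 cells over 10% in the same order. The median Treg-like cell held 0.493%, 2.56%, 2.19% and 1.15%. By sum and by median, the ages were interleaved. In such sums, a higher level in every cell cannot be told apart from more cells of a subset that holds the gene.

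Foxp3 itself was seen in 70 of the 104 cells. Of these, 22 held Foxp3 without Ikzf2 or Tnfrsf4, 21 held Foxp3 and Ikzf2, 4 held Foxp3 and Tnfrsf4 and 23 held all 3 genes. The remaining 34 cells were taken for Ikzf2 and Tnfrsf4 with Foxp3 at 0. Most Foxp3-positive cells rested on a single molecule, with 50 cells at 1 UMI, 17 at 2, 2 at 3 and 1 at 4 UMIs. The series held a Foxp3 UMI in 106 cells in all, and the 36 outside the rule fell there for an absent Cd3 UMI (3 cells), a Cd8 UMI (12), Cd79a over 2 UMIs (19) or Lyz2 over 4 UMIs (2).

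**Figure D1:**
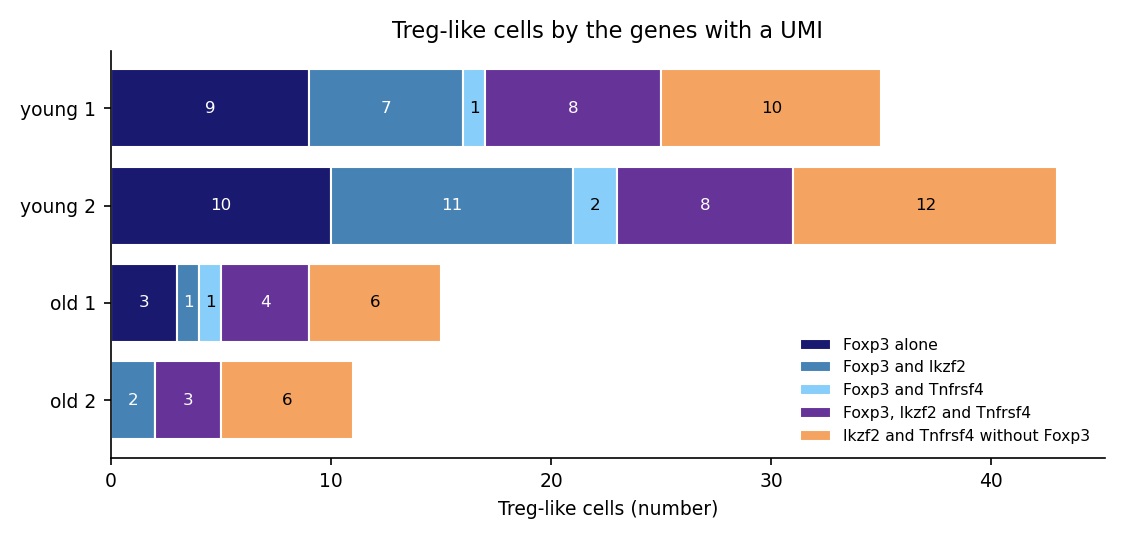
Number of Treg-like cells in each of the 4 samples, split by which of the genes Foxp3, Ikzf2 and Tnfrsf4 had a UMI. Cells taken for Ikzf2 and Tnfrsf4 without Foxp3 numbered 10, 12, 6 and 6, and old sample 2 held no cell with Foxp3 alone.

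RNA free in the suspension could place a stray molecule in any droplet, so the share of Foxp3-positive cells was set beside cells that should lack the gene. Of the 2562 Fcer2a-positive B cells (Cd79a at 3 or more UMIs, no Cd3 UMI, Fcer2a at 1 or more), 0 held a Foxp3 UMI, which allows a share of up to 0.117%, at a median of 2219 UMIs per cell. Of 940 Cd8 T cells, 7 (0.745%, 95% exact binomial interval 0.300% to 1.53%) held one, at a median of 3223 UMIs. Intervals on shares and on UMI sums (exact Poisson) cover counting error only.

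The name of the cells was checked with Izumo1r, a Treg marker that the rule did not use. A UMI of Izumo1r was found in 54.3% and 60.5% of the young Treg-like cells, and in 53.3% and 81.8% of the old Treg-like cells. In other Cd4 T cells, which met the same limits, held at least 1 Cd4 UMI and were not Treg-like (478 cells), the shares were 30.1%, 21.6%, 20.4% and 37.0%, and in the Fcer2a-positive B cells the share was 0.429%. All 4 Treg-like shares lay above all 4 of the other Cd4 T cells, at medians of 2711 and 2714 UMIs per cell. A Cd4 UMI, which the rule did not ask for, was seen in 30 of the 104 cells, and whether the other cells lacked Cd4 or missed its transcript was not tested.

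Cells just inside the rule held more Izumo1r than cells just outside it. Cells with 1 Foxp3 UMI held 576 CPM of Izumo1r (95% interval 464 to 706), cells with 2 or more held 491 CPM (331 to 701), and cells taken for Ikzf2 and Tnfrsf4 held 558 CPM (421 to 724). The 226 cells outside with Ikzf2 but neither Tnfrsf4 nor Foxp3 held 172 CPM, the 66 with Tnfrsf4 but neither of the other two held 306 CPM, and the other Cd4 T cells held 147 CPM. Ctla4, an inhibitory receptor that competes with Cd28 for its ligands, gave 156, 131 and 49.8 CPM in the same 3 inner classes, and 29.4 and 45.8 CPM in the 2 outer ones. The Izumo1r intervals of the 3 inner classes overlap, and the Ctla4 value of the cells without Foxp3 was the lowest of the 3. These values are a description, with no test.

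Set against the other Cd4 T cells of the same sample, the Treg-like cells had higher Treg receptor genes and effector genes, and lower genes of resting T cells and of the ribosome. UMIs were summed per sample and set and tested by quasi-likelihood in edgeR, with TMM scaling, the sample as a block and Benjamini-Hochberg adjustment over 3449 genes, leaving out the genes of the rule and Cd4. At an adjusted p under 0.05, 66 genes were higher (1.91%) and 101 lower (2.93%) in Treg-like cells, 4.84% in all. The split depended on scaling: with library sizes alone, in place of TMM, 116 genes were higher and 31 lower, and the median of all genes moved from -0.0039 to 0.17 on the log2 scale, and with DESeq2 29 were higher and 74 lower. The count depended on single samples, with 26 genes called without young sample 2 and 105 without young sample 1, and 158 and 203 without old samples 1 and 2. The 2 young samples alone gave 226 calls and the 2 old samples alone gave 45.

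Of the 30 genes of a Treg signature list, 14 were tested and 9 were called higher, with none called lower and a median log2 fold change of 1.79, beside -0.0039 over all genes tested. A gene entered the test with a UMI in 10% of the cells of either set, and 8 of the 14, 6 of them called, entered through the Treg-like cells alone, so that their direction was partly fixed by the filter. Of the 6 that reached 10% in both sets, 3 were called higher and 0 lower. Izumo1r stood at 547 and 575 CPM in the young and 377 and 705 CPM in the old samples in Treg-like cells. In other Cd4 T cells it stood at 174 and 114 CPM in the young and 121 and 189 CPM in the old samples, lower in each of the 4 pairs (log2 fold change 1.75 ± 0.18 SE, adjusted p = 2.23e-06 with edgeR). Izumo1r was called in 19 of 19 alternative fits.

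Il2ra, the receptor chain that lets Treg cells compete for interleukin 2, was at 29.3 and 164 CPM in the young and 111 and 0 CPM in the old samples in Treg-like cells. In the other Cd4 T cells it was at 4.67 and 8.00 CPM in the young and 6.75 and 13.5 CPM in the old samples, and Treg-like cells were higher in 3 of 4 samples, with 0 UMIs in old sample 2 (log2 fold change 3.38 ± 0.56, adjusted p = 0.00077 with edgeR). Tnfrsf18, the costimulatory receptor GITR, was at 371 and 194 CPM in the young and 576 and 378 CPM in the old samples in Treg-like cells. The other Cd4 T cells held 93.3 and 104 CPM in the young and 128 and 148 CPM in the old samples, below their Treg-like partner in all 4 samples (1.43 ± 0.23, adjusted p = 0.00045).

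Nrp1, a semaphorin co-receptor common on thymus-derived Treg cells of mice, was at 205 and 134 CPM in the young and 288 and 101 CPM in the old samples against 23.3 and 22 CPM in the young and 67.5 and 67.5 CPM in the old samples in other Cd4 T cells (log2 fold change 2.28 ± 0.34, adjusted p = 0.00020 with edgeR). Capg, an actin-capping protein, was at 615 and 478 CPM in the young and 842 and 378 CPM in the old samples against 103 and 64 CPM in the young and 317 and 229 CPM in the old samples (1.97 ± 0.23, adjusted p = 1.54e-05). Both were higher in all 4 samples, though the 2 highest values of other Cd4 T cells for Capg came from the old samples. Lrrc32 (GARP), which tethers latent TGF-beta to the Treg surface, was at 137 and 37.3 CPM in the young and 22.2 and 0 CPM in the old samples, and the other Cd4 T cells held 1 UMI in all, so that the pooled ratio of 85 has a 95% counting interval of 13.6 to 3523.

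Ctla4 was at 185 and 142 CPM in the young and 0 and 0 CPM in the old samples in Treg-like cells and at 7.78 and 14 CPM in the young and 33.7 and 27 CPM in the old samples in the other Cd4 T cells. The gene was called over all samples (log2 fold change 2.83 ± 0.61, adjusted p = 0.0071 with edgeR) although 2 of 4 samples were higher in the Treg-like cells, both of them young. The remaining called genes of the list were Ikzf4 (2.95 ± 0.62), an Ikaros-family transcription factor, and Socs2 (1.83 ± 0.50), a feedback inhibitor of cytokine signalling. Transcripts of Il10 and Penk, 2 products of effector Treg cells, were at 0 UMIs in all 104 cells, and Areg was at 1 UMI.

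Of 40 effector and memory genes, 29 were tested, 12 were called higher and 3 lower, and the median log2 fold change was 0.52. Of the 23 that passed the detection filter in both sets, 9 were called higher and 2 lower. Another 3 called higher, Klrg1 and Maf among them, entered through the Treg-like cells alone. The remaining 1 called lower entered through the other Cd4 T cells alone. The direction of such genes was partly fixed by the filter. Klrg1, a lectin receptor of short-lived effector cells, was at 127 and 82.1 CPM in the young and 310.3 and 126 CPM in the old samples in Treg-like cells and at 4.67 and 32 CPM in the young and 47.2 and 0 CPM in the old samples in other Cd4 T cells. Treg-like values were higher in all 4 samples (2.54 ± 0.47, adjusted p = 0.0023 with edgeR), from 43 UMIs in 13 Treg-like cells. The chemokine receptor gene Ccr2, which guides cells into inflamed tissue, stood at 146 and 105 CPM in the young and 332 and 151 CPM in the old samples in Treg-like cells against 29.5 and 46 CPM in the young and 67.5 and 54 CPM in the old samples (1.65 ± 0.31, adjusted p = 0.0023). S100a4, S100a6, S100a10 and S100a11, a set of small calcium-binding proteins of effector lymphocytes, had log2 fold changes of 1.63 ± 0.21, 1.52 ± 0.18, 1.37 ± 0.12 and 1.05 ± 0.11, each higher in all 4 samples. The transcription factor gene Maf (1.22 ± 0.30) and the adhesion and cytoskeletal genes Itgb7 (0.56 ± 0.14), Cd2 (0.49 ± 0.13), Lgals1 (1.13 ± 0.18), Vim (1.28 ± 0.18) and Anxa2 (1.17 ± 0.32) were also called higher.

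The 3 effector genes called lower were Ccl5, Nkg7 and Id2. Ccl5, a chemokine stored by memory and cytotoxic T cells, was at 527 and 896 CPM in the young and 355 and 75.5 CPM in the old samples in Treg-like cells and at 1051 and 1800.0 CPM in the young and 4669.6 and 1916 CPM in the old samples in other Cd4 T cells (log2 fold change -2.12 ± 0.31, adjusted p = 0.00020 with edgeR). Nkg7, a cytotoxic granule protein, was at 78.1 and 82.1 CPM in the young and 0 and 0 CPM in the old samples in Treg-like cells and at 209.9 and 296 CPM in the young and 1026 and 148 CPM in the old samples in the others (-2.72 ± 0.38, adjusted p = 0.00012). Id2, an inhibitor of E proteins that promotes effector differentiation, was at 166 and 112 CPM in the young and 421 and 453 CPM in the old samples against 393 and 600.0 CPM in the young and 688 and 580.3 CPM in the old samples (-1.45 ± 0.23, adjusted p = 0.00050). Treg-like cells were the lower of the pair in all 4 samples for each of these genes.

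Of 20 genes of naive and central T cells, 18 were tested, 10 were called lower and 1 higher, with a median log2 fold change of -1.01. Of the 15 that reached 10% of cells in both sets, 8 were called lower and 0 higher. Another 2 called lower entered through the other Cd4 T cells alone, so that their direction was partly fixed by the filter. Lef1, a transcription factor of resting T cells, was at 166 and 157 CPM in the young and 155 and 75.5 CPM in the old samples in Treg-like cells and at 603 and 388 CPM in the young and 115 and 378 CPM in the old samples in other Cd4 T cells (-1.63 ± 0.24, adjusted p = 0.00020 with edgeR). Old sample 1 was the exception, where the other Cd4 T cells held less Lef1 than the Treg-like cells. Igfbp4, a growth factor binding protein of naive T cells, was at 97.6 and 44.8 CPM in the young and 0 and 0 CPM in the old samples against 524 and 402 CPM in the young and 101 and 553 CPM in the old samples (-3.23 ± 0.30, adjusted p = 6.50e-07). Dapl1, a gene of resting T cells, had 2 UMIs in Treg-like cells against 456 in other Cd4 T cells, a pooled ratio of 0.0186 (95% counting interval 0.00225 to 0.0677).

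The interleukin 7 receptor gene Il7r, which Treg cells carry at low levels, was at 117 and 142 CPM in the young and 310.3 and 101 CPM in the old samples in Treg-like cells and at 314 and 248 CPM in the young and 317 and 445 CPM in the old samples in other Cd4 T cells. It was lower in all 4 samples (-1.15 ± 0.24, adjusted p = 0.0049 with edgeR). Tcf7 (-1.15 ± 0.22), Satb1 (-1.60 ± 0.27), Ccr7 (-1.15 ± 0.26), Actn1 (-2.00 ± 0.38), Txk (-1.15 ± 0.31) and the survival gene Bcl2 (-0.87 ± 0.23) were called lower as well. Id3, an E protein inhibitor that maintains Treg cells, was the 1 gene of the list called higher (1.42 ± 0.35). It entered the test through the Treg-like cells alone, so that its direction was partly fixed by the filter.

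**Figure D2:**
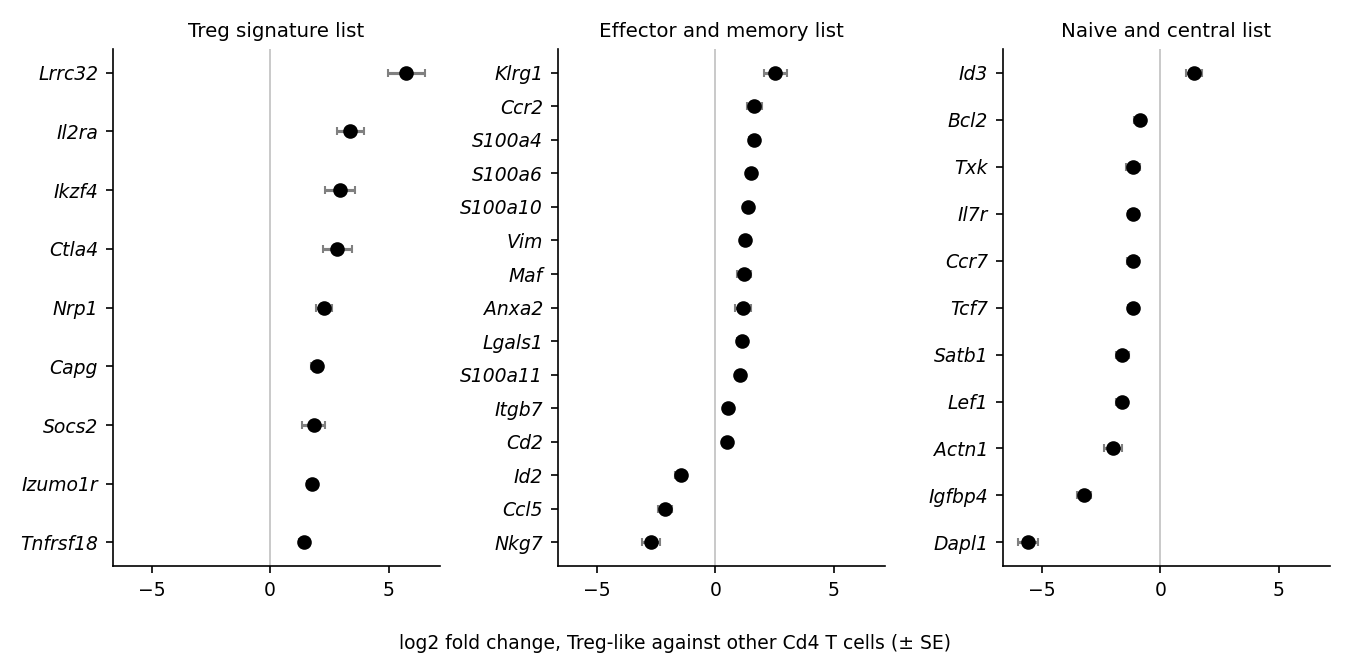
Log2 fold change (x axis, point ± SE) of each called gene of 3 gene lists in Treg-like against other Cd4 T cells, from UMI sums over 4 samples with the sample as a block. All 9 genes of the Treg signature lie above 0, the effector list has 12 above and 3 below, and the naive list has Id3 above and 10 below. Id3 and some other genes of each list reached 10% of cells in a single set, which partly fixed their direction.

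Cytoplasmic ribosomal protein genes were lower in Treg-like cells as a group. Of 83 tested, 55 were called lower and 0 higher, with a median log2 fold change of -0.45, and the list took 33.7% and 30.7% of the UMIs of young Treg-like cells, against 23.6% and 23.8% for old ones. The other Cd4 T cells gave 38.7%, 36.3%, 27.4% and 34.8%. With library sizes in place of TMM the median was -0.29 and 9 genes were called. Against the other Cd4 T cells with an S100a6 UMI the median was -0.26 and 1 of 84 was called, and against those without S100a6 it was -0.54 and 69 were called.

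The S100a6-positive Cd4 T cells were also used as the comparator for the other lists. Against them, 30 genes were higher and 26 lower in Treg-like cells. Of the Treg signature list, 7 of 14 were called higher (Izumo1r, Il2ra, Nrp1, Capg, Lrrc32, Tnfrsf18 and Ikzf4), and of the effector list 5 of 30 were higher and 4 lower. Klrg1 had a log2 fold change of 2.47 there, and S100a10, S100a4, Vim and Cd2 had values of 0.94, 0.68, 0.96 and 0.63. Ccr2 (0.81, adjusted p = 0.36 with edgeR), Maf (0.54, adjusted p = 0.66) and Anxa2 (0.33, adjusted p = 0.75) did not pass the test.

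The other lists had 0 to 5 genes called each. Of 20 interferon-stimulated genes, 15 were tested and 3 were called higher, namely Ifi27l2a (log2 fold change 1.39 ± 0.11), Igtp (1.20 ± 0.28) and the GTPase gene Gbp2 (1.91 ± 0.41). Of 13 tested T cell receptor signalling genes, the kinase gene Lck was called lower (-0.57 ± 0.13) and none higher, and the T cell receptor constant genes were not analysed here. Of the 12 tested genes of interleukin 2 receptor and STAT5 signalling, Il2ra, Socs2 and the kinase gene Pim1 (0.96 ± 0.20) were higher and Il7r and Bcl2 lower. The 11 tested costimulatory and inhibitory receptors included Cd40lg (-2.15 ± 0.54), the ligand with which helper T cells license B cells, as the 1 called lower, with Ctla4, Tnfrsf18 and Cd2 called higher. Among 14 lineage transcription factors, Ikzf4, Maf and Id3 were higher and Id2 and Ikzf1 (-1.17 ± 0.24) lower. These 3 higher genes entered the test through the Treg-like cells alone, so that their direction was partly fixed by the filter. Of the 9 that passed the filter in both sets, 0 were called higher and 2 lower. The same limit holds for 2 higher genes of the interleukin 2 list, 1 interferon-stimulated gene and Ctla4. Cd40lg entered through the other Cd4 T cells alone. The class I antigen presentation list had 20 genes tested and 0 called with edgeR or DESeq2, and a median of 0.06.

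Outside the lists, the called genes with the largest fold changes seen in all 4 samples were these. Inpp5f (log2 fold change 2.90 ± 0.77), Fam110a (2.55 ± 0.68), Fam129a (2.35 ± 0.52), Cd320 (2.34 ± 0.67), Sh3bgrl (2.03 ± 0.34) and Slc39a1 (1.99 ± 0.49) were higher, and against S100a6-positive Cd4 T cells Sh3bgrl (1.55) kept its call. The others had log2 fold changes of 2.18 (Inpp5f), 1.91 (Fam110a), 1.30 (Fam129a), 3.61 (Cd320) and 1.83 (Slc39a1) there and did not pass the test, with adjusted p from 0.063 to 0.45 with edgeR. St3gal6 (-2.96 ± 0.71), Tnfsf8 (-2.63 ± 0.52), the gene of CD30 ligand, and Gtf2i (-1.91 ± 0.33) were lower. Pde3b, a phosphodiesterase gene, had 0 UMIs in Treg-like cells and 40.4, 40, 27 and 40.5 CPM in the other Cd4 T cells, which were at least 4.16-fold higher, taking 3 UMIs over all Treg-like cells as the limit.

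Treg-like cells were a larger part of the Treg-like and other Cd4 T cells in the old samples by the full rule, before depth was equalised. A Cd4 UMI was asked of the other Cd4 T cells but not of the Treg-like cells, of which 30 of 104 held one. These are therefore not shares of all Cd4 T cells. They made up 13.4% (95% interval 9.52% to 18.2%) and 19.6% (14.6% to 25.5%) of the Treg-like and other Cd4 T cells of the young samples, and 23.4% (13.8% to 35.7%) and 28.9% (15.4% to 45.9%) of those of the old ones. The ages did not overlap, and the means differed by 9.67 percentage points (two-sided exact permutation test, p = 0.333, the smallest that 2 against 2 samples allow). After each cell was thinned to 1000 UMIs and the rule applied again, which kept 51 Treg-like cells, the young shares were 14.0% and 22.1% and the old shares 17.4% and 30.0%, and the ages overlapped (exact permutation p = 0.667). With Foxp3-positive cells alone as Treg-like, the young shares were 9.96% and 15.0% and the old shares 15.5% and 15.6%, a difference of 3.10 points (exact permutation p = 0.333). As a share of all cells the order was the opposite, 0.897% and 1.11% for young samples against 0.323% and 0.503% for old ones. Cd3-positive Cd8-negative cells within the limits were 21.5% and 20.7% of all young cells, and 4.48% and 6.63% of all old cells.

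**Figure D3:**
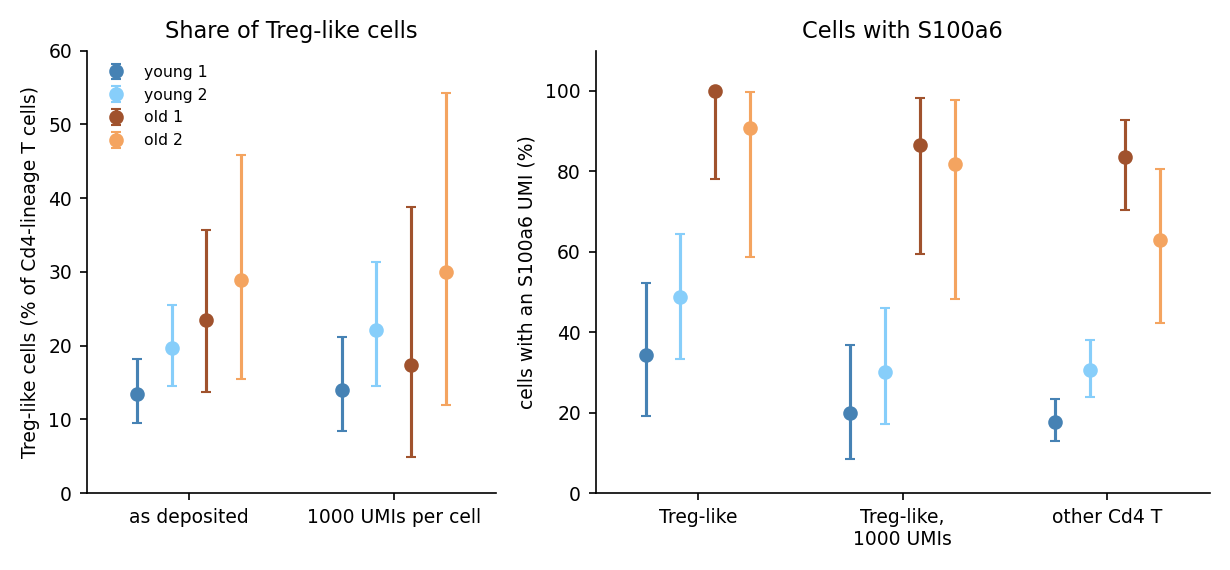
Left, Treg-like cells as a percentage of Treg-like and other Cd4 T cells in each sample, with counts as deposited and after thinning to 1000 UMIs per cell; right, the percentage of cells with an S100a6 UMI in Treg-like cells, in the same cells thinned, and in other Cd4 T cells. Points are samples and bars are 95% exact binomial intervals, and the old samples lie above the young ones in each group but the thinned share on the left.

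Among the genes of the rule, levels by age are a description. Foxp3 was at 312 and 343 CPM in the young and 244 and 126 CPM in the old samples, and the 2 old values were the lower ones, from 11 and 5 UMIs. Tnfrsf4 was at 283 and 291 CPM in the young and 576 and 529 CPM in the old samples, with the old values above the young ones. Ikzf2 was at 869 and 679 CPM in the young and 820.1 and 729.9 CPM in the old samples, with the ages interleaved. The part of the Treg-like cells with a Foxp3 UMI was 25 of 35 and 31 of 43 in the young and 9 of 15 and 5 of 11 in the old samples.

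In old Treg-like cells S100 and other effector genes were higher than in young ones. Age was compared over the Treg-like sums with edgeR's quasi-likelihood test over 2661 genes, those with a UMI in at least 10% of the Treg-like cells of each age, and 17 genes were higher (0.639%) and 2 lower (0.0752%) in old samples at an adjusted p under 0.05. DESeq2 called 11 higher and 11 lower. Without old sample 1, and without old sample 2, 0 genes were called by edgeR, with 125 and 147 at an unadjusted p under 0.05, and without young sample 1 it called 8, so that the calls rest on 26 old cells in 2 pools. In those fits a lone old sample is assumed to vary like the young ones.

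S100a6 had the smallest adjusted p. Its level was 810.2 and 1000.2 CPM in the young and 2969.9 and 4706 CPM in the old samples (log2 fold change 2.02 ± 0.24 SE, adjusted p = 7.65e-06 with edgeR). Both old samples lay above both young ones. In the cells with 0 UMIs of Cd79a and Lyz2, 7 and 4 of them old, the log2 fold change of S100a6 was 1.01 and did not pass the test (adjusted p = 0.37 with edgeR). Of the 17 genes called higher with age, 16 were tested in those cells, 15 had the same direction and 1, Ly6a, was called. S100a4, S100a11 and S100a10 belong to its family, and S100a4 was at 293 and 411 CPM in the young and 842 and 1435 CPM in the old samples (1.59 ± 0.27, adjusted p = 0.0014). S100a11 was at 664 and 739 CPM in the young and 2106 and 1988 CPM in the old samples (1.47 ± 0.19, adjusted p = 1.35e-05). S100a10 was at 1923 and 1575 CPM in the young and 3989 and 3398 CPM in the old samples (1.02 ± 0.20, adjusted p = 0.0062). The 4 genes lie in 2 pairs on chromosome 3 of mm10, with S100a4 at 90603770 to 90606045 and S100a6 at 90612894 to 90614414, and S100a11 at 93520496 to 93526288 and S100a10 at 93555117 to 93564645 (RefSeq gene bounds).

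Cells with S100a6 were nearly all of the old Treg-like cells. A UMI was found in 12 of 35 (34.3%) and 21 of 43 (48.8%) young cells, and in 15 of 15 (100%, 95% interval 78.2% to 100%) and 10 of 11 (90.9%, 58.7% to 99.8%) old cells (difference 53.9 points, two-sided exact permutation p = 0.333). After thinning to 1000 UMIs the shares of the same cells were 20.0%, 30.2%, 86.7% and 81.8%. The other Cd4 T cells gave 17.7%, 30.7%, 83.7% and 63.0%, and the Fcer2a-positive B cells 19.9%, 15.1%, 55.6% and 29.8%. The higher old share was thus found in each of these cell sets, and RNA free in the suspension was not tested as a part of it.

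Ly6a (Sca-1), an interferon-responsive surface protein of activated T cells, was at 381 and 299 CPM in the young and 1618 and 1057 CPM in the old samples (log2 fold change 1.93 ± 0.24, adjusted p = 8.25e-06 with edgeR). Cxcr3, the chemokine receptor of T cells drawn to type 1 inflammation, was at 87.9 and 29.9 CPM in the young and 244 and 302 CPM in the old samples (2.20 ± 0.51, adjusted p = 0.032). Id2 was at 166 and 112 CPM in the young and 421 and 453 CPM in the old samples (1.60 ± 0.36, adjusted p = 0.024). For each of these 3 genes the lowest old sample was above the highest young one.

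The remaining genes called higher have varied roles. Vim, an intermediate filament protein, was at 576 and 858 CPM in the young and 1596 and 2492 CPM in the old samples (1.42 ± 0.23, adjusted p = 0.00064 with edgeR). Crip1, a small LIM domain protein, was at 2333 and 2463 CPM in the young and 4433 and 7752 CPM in the old samples (1.30 ± 0.24, adjusted p = 0.0025). Ifi27l2a, an interferon-stimulated gene, was at 2509 and 2239 CPM in the young and 6073 and 5512 CPM in the old samples (1.23 ± 0.20, adjusted p = 0.00057). Called higher too were Anxa2 (1.51 ± 0.36), Pkp3 (1.49 ± 0.32), the mitochondrial carrier gene Ucp2 (1.24 ± 0.29), Prr13 (1.14 ± 0.23), Tagln2 (1.12 ± 0.27), the galectin gene Lgals1 (1.07 ± 0.21) and the ubiquitin gene Ubb (0.83 ± 0.20).

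Ccl5 and Rps19 fell with age in Treg-like cells. Ccl5 was at 527 and 896 CPM in the young and 355 and 75.5 CPM in the old samples in Treg-like cells (log2 fold change -1.77 ± 0.39, adjusted p = 0.020 with edgeR), from 174 young and 19 old UMIs. In the other Cd4 T cells it was at 1051 and 1800.0 CPM in the young and 4669.6 and 1916 CPM in the old samples, and in the Fcer2a-positive B cells at 194 and 225 CPM in the young and 119 and 46.9 CPM in the old samples. Rps19, a protein of the small ribosomal subunit, was at 9722 and 8435 CPM in the young and 4942 and 5512 CPM in the old samples (-0.85 ± 0.19, adjusted p = 0.022), and in B cells at 9916 and 9118 CPM in the young and 9619 and 9541 CPM in the old samples. In the other Cd4 T cells Rps19 was at 10751 and 9754 CPM in the young and 6505 and 9379 CPM in the old samples, with both old values below the young ones there too.

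**Figure D4:**
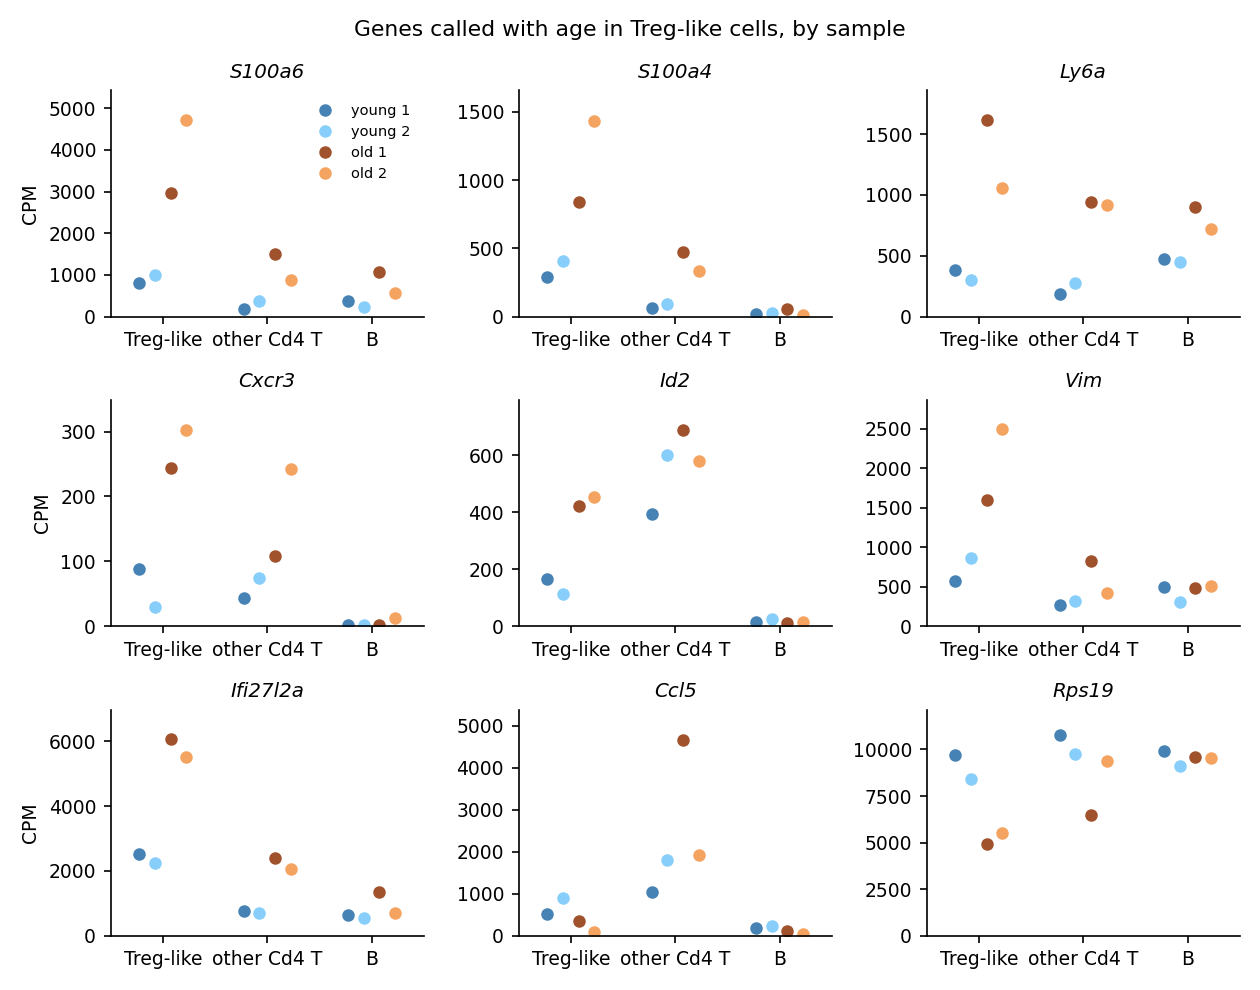
CPM (y axis, from 0) of 9 genes called with age in Treg-like cells, 1 point per sample, in Treg-like cells, other Cd4 T cells and Fcer2a-positive B cells (B). Old samples lie above young ones in Treg-like cells for the 7 genes from S100a6 to Ifi27l2a and below them for Ccl5 and Rps19, and S100a6, Ly6a and Ifi27l2a are also higher in the old B cells.

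Most of these genes were also higher with age in the most similar cells. Of the 17 genes called higher, 16 were also above the young range in both old samples in the other Cd4 T cells, and 8 were so in the Fcer2a-positive B cells. In Treg-like cells 18.3% of all tested genes were above the young range. That share was not counted in the other Cd4 T cells or the B cells, so these counts have no background there. Crip1 in B cells was at 2083 and 1358 CPM in the young and 4287 and 2288 CPM in the old samples, Ly6a at 478 and 448 CPM in the young and 898 and 717 CPM in the old samples and Ifi27l2a at 651 and 553 CPM in the young and 1337 and 698 CPM in the old samples. These values stand beside the calls in Treg-like cells, and the part of free RNA in them was not tested. Vim, with 494 and 301 CPM in the young and 488 and 505 CPM in the old samples in B cells, and S100a10, with 578 and 461 CPM in the young and 513 and 520.2 CPM in the old samples, did not separate the ages there.

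A test of whether the age effect differed between Treg-like and other Cd4 T cells called 1 of 2138 genes (0.0468%), and this was Ccl5 (difference -2.89 ± 0.28 on the log2 scale, adjusted p = 0.00093 with edgeR). Both old Treg-like values were below both young ones, while both old values of the other Cd4 T cells were above both young ones. The difference kept its call without any 1 of the 4 samples, and lost it with DESeq2 (adjusted p = 0.052) and with Foxp3-positive cells alone (adjusted p = 0.30). At an unadjusted p under 0.05, 72 genes were found. Bcl2, which protects lymphocytes from death, was at 459 and 388 CPM in the young and 222 and 101 CPM in the old samples in Treg-like cells and 519 and 434 CPM in the young and 823 and 702 CPM in the old samples in the others, and its difference of -1.96 ± 0.35 did not pass the test (adjusted p = 0.17).

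The gene lists were chosen with earlier results of these data known, so counts by list are a description and not separate support. By list, effector and memory genes held most of the calls. Of 25 tested, 12 were called higher and 1 lower, with a median log2 fold change of 1.05 beside -0.02 over all genes, and for 21 of the 25 the lower old value was above the higher young one, against 18.3% of all genes tested. Summed, the list took 1.55% and 1.60% of UMIs in young Treg-like cells, against 3.12% and 3.63% in old ones. In the other Cd4 T cells it took 1.01%, 1.22%, 2.76% and 1.74%. The naive and central list had 15 tested and 0 called with edgeR or DESeq2 and a median of -0.21, and 6 of its genes had both old samples below both young ones, against 16.8% of all genes.

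Of the ribosomal protein genes, 83 were tested and 1 was called lower with edgeR and 11 with DESeq2, beside 2 and 11 among all 2661 genes tested. Their median log2 fold change was -0.49, beside -0.02 over all genes. For 73 of 83 both old samples were below both young ones, against 16.8% of all genes. The median was -0.44 with library sizes in place of TMM, and leaving out the haemoglobin genes, an alternative added after seeing the data, gave 26 calls. In the Fcer2a-positive B cells the list took 32.4% and 30.2% of young UMIs against 30.7% and 33.6% of old ones, which overlapped. In the other Cd4 T cells the shares given above, 38.7% and 36.3% young and 27.4% and 34.8% old, did separate, with the old ones lower.

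Of the Treg signature list, 10 genes were tested with age and 0 called with edgeR or DESeq2, and the median log2 fold change was 0.16. Their summed share was 0.455% and 0.417% in young Treg-like cells, against 0.490% and 0.383% in old ones, so that the ages overlapped. Ctla4 stood out within the list. It had 19 UMIs in 14 cells in each young sample and 0 UMIs in the 26 old cells, a level at least 4.55-fold higher in the young, taking 3 UMIs over both old samples as the limit. The 10% rule on cells of each age kept Ctla4 out of the test, and it was called with edgeR's filterByExpr in place of that rule (adjusted p = 0.024) and with no filter (adjusted p = 0.00060). Other Cd4 T cells of the old samples held Ctla4 at 33.7 and 27 CPM, from 5 and 2 UMIs, above their young values of 7.78 and 14.0 CPM.

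Among the other receptors of the list, none was called with age. Tnfrsf18 was at 371 and 194 CPM in the young and 576 and 378 CPM in the old samples, and Icos, the costimulator of follicular and effector Treg cells, at 195 and 134 CPM in the young and 155 and 252 CPM in the old samples, and neither passed the test. Lrrc32 had 19 UMIs in the young and 1 in the old cells, and Gpr83, a receptor of Treg cells, had 14 and 0, and both were outside the 10% rule. Klrg1 was found in 11.4% and 6.98% of young Treg-like cells, against 33.3% and 9.09% of old ones, so that 1 old sample stood apart and the other lay between the young ones.

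Young Treg-like cells themselves held an S100a6-positive and an S100a6-negative side, 33 and 45 cells, given here as values with no test. Klrg1 had 24 UMIs (213 CPM, 95% interval 136 to 317) in the S100a6-positive cells and 0 in the others, and Ccr2 had 239 and 16.2 CPM. Ccr7 was at 79.8 CPM (36.5 to 151) in S100a6-positive and 259 CPM (177 to 365) in S100a6-negative cells, Bcl2 at 222 and 599 CPM and Il2ra at 26.6 and 178 CPM. Izumo1r was at 559 and 566 CPM, Ctla4 at 177 and 146 CPM and Tnfrsf18 at 284 and 259 CPM, with intervals that overlap. Of the 26 old cells 25 were S100a6-positive, and these held Klrg1 at 229 CPM, Ccr2 at 229 CPM, Ccr7 at 144 CPM, Bcl2 at 169 CPM and Ctla4 at 0 UMIs.

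Marker genes of other blood cells were found in the Treg-like cells, red cell genes most of all. The 4 red cell markers summed to 6872 to 129766 CPM, beside 11579 to 81404 CPM in the other Cd4 T cells, and with cells over 10% haemoglobin left out 20 genes were called higher and 19 lower with age. Of 5 B cell markers measured, 5 were detected and their summed level was 931 to 1669 CPM, beside 1147 to 1709 CPM in the other Cd4 T cells and 33927 to 39366 CPM in the Fcer2a-positive B cells. Monocyte markers, with Csf1r, Cd14 and S100a8 at 0, summed to 29.3 to 111 CPM, beside 108 to 297 CPM in the other Cd4 T cells. NK cell markers, with Prf1 at 0, summed to 14.9 to 87.9 CPM. In the other Cd4 T cells the NK markers were at 112 and 446 CPM in the young and 479 and 0 CPM in the old samples. The part of such cells in the Ccl5 and Nkg7 differences was not tested. Platelet markers were at 0 in both young and at 598 and 151 CPM in the old samples, and the other Cd4 T cells held 513 and 175 CPM of them in the old samples, and their part in the age calls was not tested. Of 4 markers of activated T cells of old blood, Csn2 was at 0 in Treg-like cells, and Cd40lg, Tnfsf8 and Cdkn2a together gave 14.9 to 111 CPM, beside 120 to 351 CPM for the 4 genes in the other Cd4 T cells.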

How the data were processed

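Peripheral blood of 2 young and 2 old pools of C57BL/6 female mice was profiled with 10x Chromium 3′ chemistry. Cell Ranger on the mm10 reference gave the UMI counts that the authors deposited, after they had aggregated both pools of an age and removed low-quality cells in Seurat 2.3.0. The sources used here name neither the annotation release nor whether aggregation equalised depth. Counts were used as deposited, as whole UMIs per gene and cell (14697 genes, 50780376 UMIs), and the sample of each cell came from the deposited list of cells. T cell receptor constant genes and some immunoglobulin genes were not analysed here. The rule that chose the cells, the gene lists and the tests were chosen with earlier results of these data known.

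UMIs were summed per sample and cell set and tested with edgeR 4.0.16 (glmQLFit and glmQLFTest, TMM, Benjamini-Hochberg over all genes tested, threshold 0.05). Genes needed a UMI in at least 10% of the cells of each age, or of either set in the comparison of sets, where the sample was a block. The difference in age effect was the set by age term over 8 sums. SE is the log2 fold change over the square root of its F value. Single percentages had a two-sided exact permutation test (6 labellings). Intervals are 95% exact binomial or Poisson ones, and 0 counts were taken to allow 3. Cells were thinned to 1000 UMIs at random, and none was shallower (lowest 1117). Doublets were not called. The Cd79a and Lyz2 limits of the rule admit low counts, and 51 of the 104 Treg-like cells held a UMI of either gene. Whether these were mixed droplets was not tested, and a stricter rule with both at 0 was tried. Replicate numbers did not pair the samples (correlation of same-numbered deviations 0.035 over 2661 genes).

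Genes named were the rule and marker genes, list genes that were called or are described by role, the 10 genes per direction with the largest fold change called with non-overlapping ages or in all 4 samples, and called differences in age effect. Ubb, Ucp2 and Prr13, the called genes outside that rule, were named after their values were seen. Coordinates are RefSeq gene bounds of GRCm38.p6 (231 of 232 genes matched). The tests were tested on simulated counts. Other tools were R 4.3.3, DESeq2 1.42.0, limma 3.58.1, Python 3.11.15 with pandas 2.3.3, scipy 1.17.1, numpy 2.4.6 and matplotlib 3.10.9.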

Additional observations from a re-analysis of the deposited data

Results flagged for a closer look

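The effect of age on Ccl5 differed between Treg-like cells and other Cd4 T cells by -2.89 on the log2 scale in a test of the difference itself, with edgeR's quasi-likelihood test (SE 0.28, adjusted p = 0.00093). The Treg-like sums behind it were 54 and 120 UMIs in the young and 16 and 3 UMIs in the old samples, and those of other Cd4 T cells 676, 900, 692 and 142 UMIs. Over 7 alternative fits the value lay between -3.51 and -2.12 and was called in 5, with adjusted p from 1.23e-15 to 0.30. In Fcer2a-positive B cells Ccl5 was at 194 and 225 CPM in the young and 119 and 46.9 CPM in the old samples.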

How the results depend on the processing

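With age, the 19 calls in Treg-like cells (17 higher, 2 lower) became 98 without the detection filter (27 higher, 71 lower), 2 with Cd79a and Lyz2 at 0 UMIs, 51 without the 5% of cells with most UMIs (32 higher, 19 lower), 0 when the rule was applied after thinning and, as alternatives added after seeing the data, 39 without cells over 10% haemoglobin (20 higher, 19 lower) and 51 without haemoglobin genes (21 higher, 30 lower), so that the balance of direction depended on these settings. With the replicate block it was 0 calls, by edgeR, with 157 genes at an unadjusted p under 0.05, in samples that share only a number. Leaving out 1 sample gave 0 to 16 calls. Against other Cd4 T cells, the 167 calls became 103 with DESeq2, 70 with Cd79a and Lyz2 at 0, 63 after thinning, 264 against all other cells of the Cd3 and Cd8 limits, 56 against S100a6-positive Cd4 T cells and 45 in the old samples alone (added after seeing the data). Leaving out 1 sample gave 26 to 203, and without the sample as block (no replicate block), which pairs both cell sets of a pool, it was 131 calls. The difference in age effect gave 0 calls with DESeq2 (3 genes at an unadjusted p under 0.05) and 0 with Foxp3-positive cells, against 1. After thinning it also gave 0, over 736 genes that did not include Ccl5. Its count also moved in fits without 1 sample, which leave 1 pool at an age. The share of Treg-like cells was higher in old samples by 9.67 points of Treg-like and other Cd4 T cells. Of Cd3-positive Cd8-negative cells the difference was 2.62 points, and 0.16 points after thinning. Of all cells it reversed to -0.59 points. Leaving out 1 sample gave 6.56 to 12.8 points of Treg-like and other Cd4 T cells, and 46.6 to 61.2 points for the share with S100a6. The cause was not tested. Tagln2 reversed with age to -0.25 under the stricter rule. Over all named genes and alternatives, 895 values kept direction and call, 314 kept direction only and 1 reversed. Depth limits the old samples most, where a gene needs 35.4 CPM over 26 cells to reach 3 UMIs.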
